A study of Mus musculus with 6 samples.

Results

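The loci of 3 genes of the NF-κB pathway, Nfkbia, Nfkbiz and Nfkb1, were examined in mouse macrophages before and after lipopolysaccharide (LPS), a component of the bacterial outer membrane that macrophages sense through TLR4. Members were all deposited p300, PU.1 and H3K4me1 peaks with their midpoint in 3 windows of mouse build mm9: chr12:56540000-56650000 for Nfkbia, chr16:55780000-55880000 for Nfkbiz and chr3:135230000-135400000 for Nfkb1. After peaks of both conditions that overlapped were merged into sites, the windows held 16 of 19879 p300 sites, 43 of 87958 PU.1 sites and 63 of 84743 H3K4me1 peaks. That made 122 regions out of 192580 in the whole series. In the order Nfkbia, Nfkbiz, Nfkb1 there were 5, 6 and 5 p300 sites, 12, 11 and 20 PU.1 sites, and 17, 15 and 31 H3K4me1 peaks.

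The cells were primary macrophages grown from bone marrow of female Fvb mice in medium with L929-cell supernatant, harvested on day 7 of differentiation. They were left untreated or given LPS at 10 ng/ml for 2 h. Chromatin immunoprecipitation with sequencing (ChIP-seq) had 4 p300 read files, 2 per condition from different biological replicates, and a single library each for PU.1 untreated, PU.1 after LPS, H3K4me1 untreated and untreated input DNA. How many animals were pooled was not given in the sources used here, and the cell type could not be read from marker genes, since the libraries hold no expression values.

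NF-κB is a family of transcription factors that wait in the cytoplasm of resting cells and enter the nucleus within minutes of LPS sensing. Nfkbia encodes IκBα, the inhibitor that holds NF-κB in the cytoplasm and is itself a target of NF-κB, which closes a negative feedback loop. Nfkbiz encodes IκBζ, an inducible nuclear member of the same family that NF-κB dimers need as a cofactor at many secondary response genes of macrophages. Nfkb1 encodes p105, the precursor of the p50 subunit of NF-κB. p300 is a histone acetyltransferase found at active enhancers and promoters, PU.1 is the ETS-family factor that the macrophage lineage depends on, and H3K4me1 (monomethylation of lysine 4 of histone H3) marks enhancer regions.

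In RefSeq's annotation of GRCm38.p6 the nearest protein-coding genes are Psma6 and Aldoart2 on either side of Nfkbia, Zpld1 and Nxpe3 beside Nfkbiz, and Manba and Slc39a8 beside Nfkb1. The reads and peaks are on mm9, for which no annotation was used here, so sites are given by position and are not assigned to promoters, exons or introns. Of the 3 genes, 1 matched the RefSeq promoter table. The Nfkbia promoter is shown because the gene is a direct NF-κB target and because its window held the most p300 of the 3 before LPS. It lies on GRCm38.p6 chr12:55492598-55492897, minus strand, and runs 5′ to 3′ from 250 bases before the annotated start to 50 after it, with matches to the κB motif (GGG, any 5 bases, CC) in capitals.
Nfkbia promoter: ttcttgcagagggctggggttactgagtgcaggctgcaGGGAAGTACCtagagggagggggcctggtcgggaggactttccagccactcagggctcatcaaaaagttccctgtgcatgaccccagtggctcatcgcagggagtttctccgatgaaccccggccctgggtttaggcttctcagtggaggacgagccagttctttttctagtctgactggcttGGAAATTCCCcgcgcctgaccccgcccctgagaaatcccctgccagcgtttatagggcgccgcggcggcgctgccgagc

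Searched on both strands, the stretch held 2 κB matches, at bases 39 to 48 on the strand shown and at bases 222 to 231 on the opposite strand. A κB match occurs in 50.8% of all 32851 RefSeq promoters of 300 bases. The ETS core GGAA, shared by PU.1 and its relatives, had 5 matches, 3 of which overlap the κB matches, and 96.0% of promoters hold at least 1. The longer PU.1 motif GAGGAAGT (in 3.20% of promoters) and the AP-1 motif TGANTCA (7.81%) had no match in these letters.

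Depth, enrichment and the small number of libraries limited the precision of the values. The 8 libraries held 5744811 to 7828655 aligned reads, or 5503587 to 6428281 distinct reads on chromosomes 1 to 19 and X. The p300 libraries differed in enrichment: p300 sites of the whole genome held 1.89% of distinct reads in untreated replicate 1 and 2.84% in LPS replicate 1, against 7.16% and 6.46% in the replicates numbered 2 and 1.29% in input. p300 values below are therefore reads divided by a size factor for each library (the median of ratios over all p300 sites), called normalised reads. Changes were tested with limma voom over the 19727 p300 sites with at least 10 reads, with Benjamini-Hochberg adjustment, and all 16 members passed that minimum. The fit shares a single variance over all sites, so its SE and p say little about how far the replicates at 1 site lie apart. An exact permutation of 2 libraries against 2 could not go below p = 0.333.

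**Figure D1:**
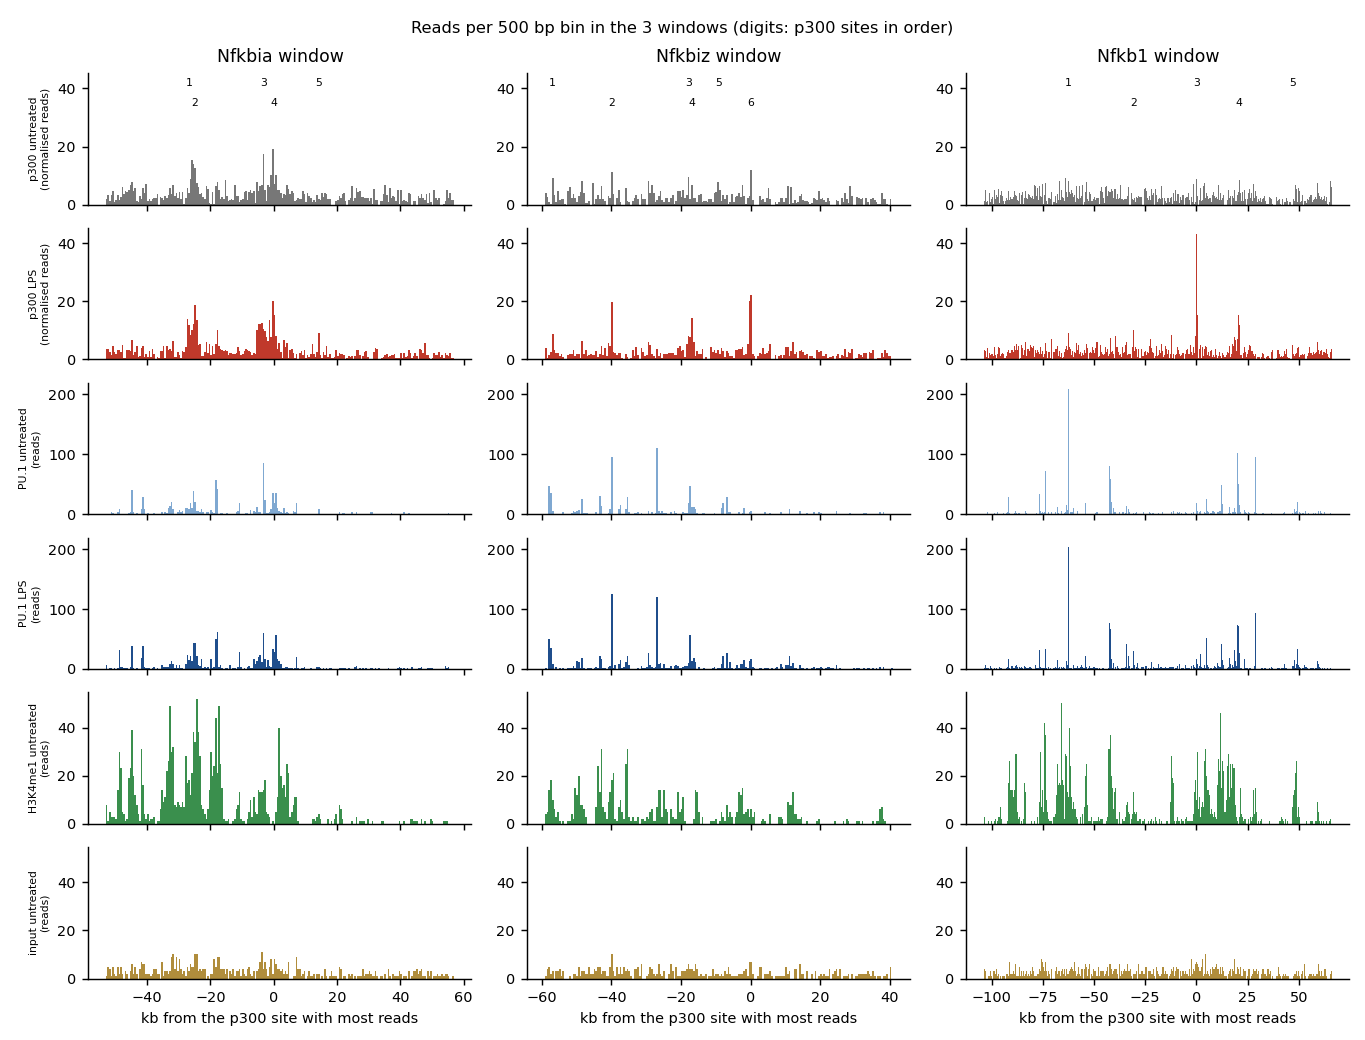
Reads per 500 bp bin along the 3 windows, plotted against the distance in kb from the p300 site with most reads in each window. Rows are p300 (mean normalised reads of 2 libraries), PU.1, H3K4me1 and input (distinct reads of 1 library each), with a common vertical scale for both p300 rows, both PU.1 rows and the H3K4me1 and input rows. Digits mark p300 sites in order. The tallest p300 bin after LPS stands at site 3 of the Nfkb1 window, where the untreated row is low.

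Summed p300 over the sites of a window was higher after LPS at each locus, but these sums include sites that became members through the LPS peak list alone, which was called on the same reads. They are therefore descriptions. Summed over its 5 sites, the Nfkbia window held 138 and 147 normalised p300 reads in untreated replicates 1 and 2, and 158 and 177 in the LPS replicates. The means were 142 ± 6.5 and 168 ± 13.7 (SD, n = 2 each), a ratio of 1.18 (log2 0.24). The locus of the NF-κB inhibitor thus held most p300 of the 3 before LPS. In the Nfkbiz window the untreated libraries had 59.5 and 62.0 and the LPS libraries 101 and 125 normalised reads, which gives 60.8 ± 1.78 and 113 ± 16.3 (SD, n = 2 each) and a ratio of 1.86 (log2 0.89). Both LPS libraries were far above the untreated ones. The Nfkb1 window went from 39.1 and 32.4 normalised reads to 113 and 129, or from 35.8 ± 4.68 to 121 ± 11.4 (SD, n = 2 each), a ratio of 3.39 (log2 1.76). Before scaling, untreated replicate 1 had 74, 32 and 21 reads over the sites of Nfkbia, Nfkbiz and Nfkb1, beside 81, 42 and 29 in input. That library was thus not above input at these sums, and its size factor of 0.538 raised its values. The small SDs of the untreated means are no measure of agreement in p300 signal.

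Membership in a list went with the direction across the genome. The median log2 fold change of all tested sites was 1.42 for the LPS list alone, -1.11 for the untreated list alone and -0.014 for sites in both lists. The LPS list alone supplied 2 of 5 sites at Nfkbia, 3 of 6 at Nfkbiz and 3 of 5 at Nfkb1.

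Over the 2 sites of each window that were in both lists, a comparison added after seeing the data, the ratios were smaller. Nfkbia then had 98.6 and 104 normalised reads untreated and 100.0 and 120.0 after LPS, a ratio of 1.08 with overlapping libraries. Nfkbiz had 18.6 and 15.9 untreated and 14.5 and 18.9 after LPS, a ratio of 0.967, again with overlap. Only Nfkb1 kept both LPS libraries above the untreated ones, with 22.3 and 21.1 against 33.3 and 39.8, a ratio of 1.69.

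Over all sites, the LPS libraries stood above both untreated libraries in each of the 3 windows. Within replicate number 1 the log2 ratios were 0.20, 0.77 and 1.53 in the order Nfkbia, Nfkbiz, Nfkb1, and within number 2 they were 0.27, 1.01 and 1.99. The order of the loci was the same in both pairs, while the difference between loci was not tested. A rise is partly built in, since these sums include sites of the LPS list alone. Over sites in both lists the order differed, with log2 ratios of 0.12, -0.048 and 0.75. All p300 sites of the windows together covered 6.96, 3.97 and 3.82 kb. Per kb of site, untreated p300 was 20.4 ± 0.935, 15.3 ± 0.448 and 9.36 ± 1.23 normalised reads, and after LPS 24.1 ± 1.97, 28.4 ± 4.11 and 31.7 ± 2.98 (SD, n = 2 each). Input held 11.6, 10.6 and 7.60 reads per kb of the same sites. These input reads are unscaled, so they are not on the scale of the normalised p300 reads. The ranges of mean ± SD of neighbouring loci in this order overlapped after LPS and did not overlap without it. With n = 2 these SDs are no test of a difference between loci. Sites of the LPS list alone had no untreated peak, so the untreated level depends in part on the share of such sites.

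Of the 16 sites, 2 gained p300 by the adjusted test (12.5%, exact 95% binomial interval 1.55 to 38.3), against 1.97% of all sites tested. Both were in the LPS list alone. The median of p300 reads over the 4 libraries was 82.5 for members and 33 for all sites tested, so these shares compare sites of unlike coverage. No member was called lower (0.213% of all sites), although 3 of the 16 had a fold change below 0. At an unadjusted p under 0.05 there were 4 members, all higher, beside 11.5% of all sites higher and 6.14% lower. In 9 sites both LPS libraries lay above both untreated ones, beside 27.0% of all sites, and in 1 site both lay below, beside 27.7%. All 8 members of the LPS list alone were among the 9, and that list was called on the same reads. Among the 11 members with at least 40 reads the counts above and below were 6 and 0, beside 25.4% and 24.1% of all such sites. The median log2 fold change of the members was 0.78 and that of all sites tested was 0.00125. The LPS list alone held 50% of the members and 38.1% of all p300 sites. For the untreated list alone it was 12.5% and 38.7%. These shares and medians are therefore descriptions. Among the loci the medians were 0.25 for Nfkbia, 0.74 for Nfkbiz and 2.46 for Nfkb1. With the 1 Nfkb1 site that had no untreated read set to a floor of 3 reads over the untreated group, the Nfkb1 median was 1.92 and that of all members again 0.78.

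**Figure D2:**
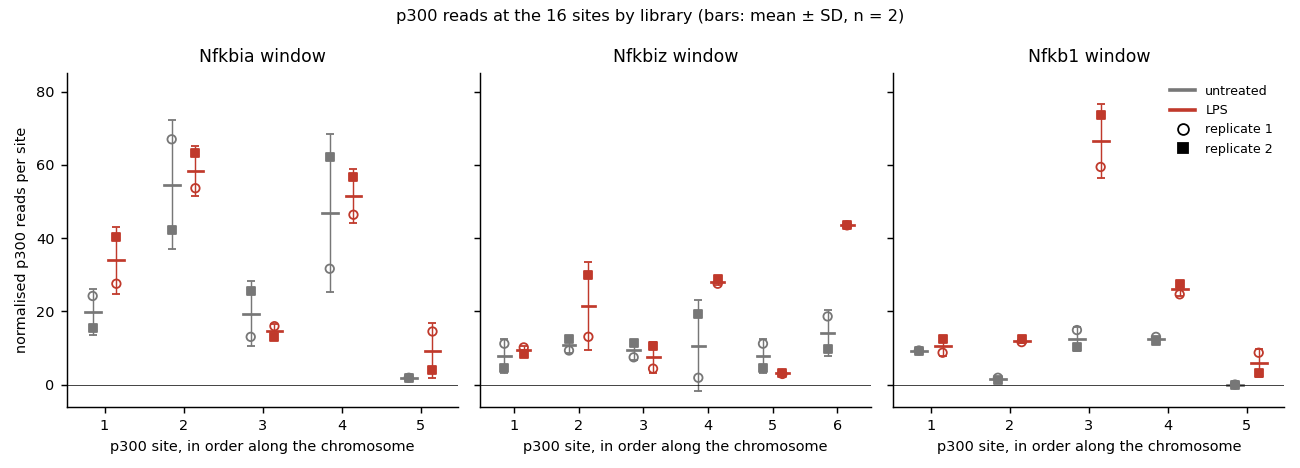
Normalised p300 reads at each of the 16 p300 sites, numbered in order along the chromosome in each window. Open circles are replicate 1 and filled squares replicate 2, untreated in grey and LPS in red, with the mean as a horizontal line and the SD (n = 2) as an error bar. LPS means lie well above untreated ones at site 6 of Nfkbiz and site 3 of Nfkb1, whereas the libraries overlap at sites 2, 3 and 4 of Nfkbia.

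The site with the largest p300 response of the 2 called was site 3 of the Nfkb1 window, chr3:135333090-135334526. Untreated replicates 1 and 2 gave 8 and 18 p300 reads there, LPS replicates 41 and 113, and input 18. Both LPS libraries were far above both untreated ones, with 12.6 ± 3.28 against 66.5 ± 10.1 normalised reads (SD, n = 2 each). By limma voom the log2 difference came to 2.46 ± 0.57 (SE), with an adjusted p of 0.00343. The authors called a p300 peak there in the LPS list alone, with a score of 337 (10 times -log10 of the p-value of their peak caller). PU.1 reads at this site were 25 before and 25 after LPS (ratio 1.00, exact 95% interval 0.551 to 1.81), and an H3K4me1 peak overlapped it before LPS. The PU.1 peak on it, PU.1 site 11 of the window with 19 and 15 reads, was in the untreated PU.1 list alone.

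This call depended on scaling and on single libraries. With total distinct reads as library size the log2 fold change was 2.56 and the adjusted p of limma voom 0.581, and with background bins 2.55 and 0.644. Leaving out untreated replicate 2, LPS replicate 1 or LPS replicate 2 ended the call as well, with adjusted p of 0.315, 0.289 and 0.846 and log2 fold changes of 1.99, 2.68 and 2.29. The fold at Nfkb1 site 3 thus moved far less than its adjusted p.

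The second called site was site 6 of the Nfkbiz window, chr16:55838594-55839595. Untreated replicates 1 and 2 gave 10 and 17 p300 reads, LPS replicates 30 and 67, and input 14. In normalised reads it went from 14.1 ± 6.31 to 43.6 ± 0.152 (SD, n = 2 each), with no overlap between conditions. By limma voom the log2 difference came to 1.81 ± 0.55 (SE), with an adjusted p of 0.0463. PU.1 went from 9 to 33 reads at this site (ratio 3.67, 1.72 to 8.71), and the PU.1 peak that overlaps the site was called after LPS only. There was no H3K4me1 peak at the site, which had 8 H3K4me1 reads.

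The adjusted p at Nfkbiz site 6 lay just inside 0.05. It was 0.0638 with a 50 bp shift, 0.0548 with no minimum of reads, 0.0638 with limma-trend, 0.645 with total reads and 0.737 with background bins as library size. Without untreated replicate 2 the log2 fold change fell to 1.11 (adjusted p = 0.460, limma voom). It was 1.85 without LPS replicate 1 (0.470) and 1.72 without LPS replicate 2 (0.846).

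The other 4 sites of the Nfkb1 window all had fold changes above 0 and none was called. Site 2, chr3:135303095-135303576, had 1 and 2 untreated and 8 and 19 LPS reads with 1 input read. Its scaled ratio of pooled reads was 9.29 (exact 95% interval 2.86 to 47.8, counting error only), and limma voom gave an adjusted p of 0.134. PU.1 at this site went from 2 to 33 reads, a ratio of 16.5 (4.22 to 142). Site 5, chr3:135380739-135381118, had 0 reads in both untreated libraries and 6 and 5 after LPS (limma voom, adjusted p = 0.221). With the untreated group set to a floor of 3 reads the ratio was 3.78. The exact 95% interval of the pooled ratio began at 2.59 (counting error only).

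Site 4 of Nfkb1, chr3:135354125-135355007, carried a p300 peak in both lists, with 7 and 21 untreated and 17 and 42 LPS reads. All LPS values lay above the untreated ones, at 12.5 ± 0.755 against 26.0 ± 1.95 normalised reads (SD, n = 2 each). The fitted log2 value of 1.05 ± 0.54 (SE) did not pass limma voom's test (adjusted p = 0.288). The authors' score went from 64.5 to 223 at this site, and PU.1 reads from 66 to 99 (ratio 1.5, 1.09 to 2.08). Site 1, chr3:135270927-135271562, changed least of the 5, with 5 and 16 untreated and 6 and 19 LPS reads (log2 fold change 0.26). It lay on the strongest PU.1 site of the 3 windows, described further below.

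In the Nfkbia window no site passed the test, and the 2 strongest had p300 peaks in both lists. Site 4, chr12:56592045-56593971, had most p300 reads of all 16 members, namely 17 and 109 without LPS and 32 and 87 with it, beside 22 input reads. Its untreated replicates spanned both LPS ones, at 46.8 ± 21.5 against 51.5 ± 7.32 normalised reads (SD, n = 2 each). The fitted log2 value was 0.25 ± 0.54 (SE; adjusted p = 0.741, limma voom). Of all tested p300 sites, 98.1% had fewer reads. The sign of this fold rested on untreated replicate 1, since it was -0.29 without that library.

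Next to it, site 3 at chr12:56589541-56590193 was the largest fall of the window by fold and was in the untreated list alone. Its reads were 7 and 45 untreated and 11 and 20 after LPS, so the libraries overlapped (log2 fold change -0.42 ± 0.53, SE, limma voom adjusted p = 0.583). PU.1 there went from 96 to 66 reads (ratio 0.688, 0.495 to 0.95). Without untreated replicate 2 the fold change was 0.027, close to 0.

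Sites 1 and 2 of Nfkbia are wide neighbours in a block of H3K4me1, at chr12:56565402-56567013 and chr12:56567033-56569285. Site 1 had 13 and 27 untreated and 19 and 62 LPS reads (19.8 ± 6.23 and 34.0 ± 9.12 normalised reads, SD, n = 2 each), and its log2 fold change of 0.79 ± 0.52 (SE) was not called (limma voom, adjusted p = 0.356). Site 2 had 36 and 74 untreated and 37 and 97 LPS reads, which overlap after scaling (log2 fold change 0.06). PU.1 reads stood at 37 and 61 at site 1 (ratio 1.65, 1.08 to 2.55) and at 80 and 127 at site 2 (1.59, 1.19 to 2.13). Site 5, chr12:56606883-56607393, had the largest fold of the window on few reads, with 1 and 3 untreated and 10 and 6 LPS reads. Both LPS libraries were higher (log2 fold change 1.48 ± 1.01, SE, limma voom adjusted p = 0.364).

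In the Nfkbiz window the sites other than site 6 had folds of both signs. Site 2, chr16:55798951-55799475, had 5 and 22 untreated and 9 and 46 LPS reads, with LPS libraries higher (log2 fold change 0.77 ± 0.55, SE, limma voom adjusted p = 0.376). Site 4, chr16:55821533-55822834, had 1 and 34 untreated and 19 and 44 LPS reads. Its replicate 1 pair differed far more than its replicate 2 pair, with log2 ratios of 3.89 and 0.57, and the fitted value was 1.08 (limma voom, adjusted p = 0.302). That value was 0.53 without untreated replicate 1 and 3.29 without untreated replicate 2. limma-trend called this site (log2 fold change 1.77, adjusted p = 0.0366).

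Sites 1, 3 and 5 of Nfkbiz held 34, 43 and 21 p300 reads over the 4 libraries. Site 3, chr16:55821030-55821352, was the largest fall with at least 40 reads, with 4 and 20 untreated and 3 and 16 LPS reads (log2 fold change -0.29 ± 0.64, SE, limma voom adjusted p = 0.754). Its libraries overlapped, and without LPS replicate 1 the value was 0.025. Site 5 was the single member with both LPS libraries below both untreated ones, at 6 and 8 against 2 and 5 reads.

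PU.1 was bound across all 3 loci before LPS, and most sites kept similar read counts afterwards. In summed reads over the PU.1 sites of a window, Nfkbia went from 556 to 632 (ratio 1.14, exact 95% interval 1.01 to 1.28), Nfkbiz from 545 to 590 (1.08, 0.962 to 1.22) and Nfkb1 from 978 to 1056 (1.08, 0.989 to 1.18). With 1 PU.1 library per condition, these intervals cover counting error and compare 2 libraries, not conditions. Peaks were shared by both lists at 33 of 37 untreated and 33 of 40 LPS peaks of the windows, and 32 of the 43 sites (74.4%) held both, beside 66.7% of all PU.1 sites. Both PU.1 peak lists carry LPS in their track line, and each was used by the label of its sample. The LPS list alone held 7 of the 43 sites (16.3%), beside 17.2% of all PU.1 sites, and the untreated list alone held 4 (9.30%), beside 16.1%. Of the 7, 5 lay in the Nfkb1 window, and their reads went from 11 to 27, 2 to 34, 8 to 30, 1 to 12 and, at site 4 of that window, only from 12 to 15 (ratio 1.25, 0.546 to 2.92). An H3K4me1 peak overlapped 27 of the 43 sites (62.8%), beside 44.6% of all PU.1 sites, and a p300 peak 12 (27.9%), beside 12.2%. The PU.1 sites of the windows were wider (median 564 bp, 419 bp over all) and held more reads (median 60, 38 over all). The shares were not matched for either.

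Among the 32 PU.1 sites with at least 40 reads, none had an interval of the ratio beyond 2-fold in either direction, beside 0.564% of all such sites higher and 0.0536% lower. Intervals excluded 1 upward at 7 of the 32 sites (21.9%, exact 95% binomial interval 9.28 to 40), beside 7.92% of all such sites, and downward at 3 (9.38%), beside 8.81%. Of those 7, 4 lay in the Nfkbia window and 3 in the Nfkb1 window. The median log2 ratio of the 32 was -0.0045, against -0.040 over all such sites. With no minimum, 13 of the 43 had intervals above 1 (30.2%), beside 7.94% of all PU.1 sites, and 3 below 1 (6.98%), beside 7.03%. The 7 sites of the LPS PU.1 list alone, except Nfkb1 PU.1 site 4, were among the 13. That list was called on the same LPS reads, so these shares are descriptions. It alone held 16.3% of the members and 17.2% of all PU.1 sites. Among sites with at least 40 reads and an interval above 1, only Nfkbia PU.1 site 1 was of this kind.

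**Figure D3:**
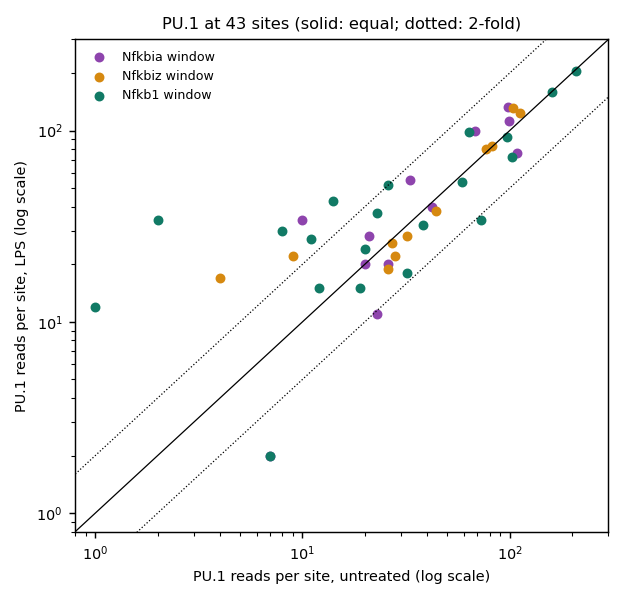
PU.1 reads at the 43 PU.1 sites, untreated library on the horizontal and LPS library on the vertical axis, both on a log scale, coloured by window. The solid line marks equal reads and the dotted lines a 2-fold difference. Strong sites lie near the solid line, while a few sites with few untreated reads, most of them in the Nfkb1 window, lie above the upper dotted line, and 2 sites share the point at 7 and 2 reads.

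The strongest PU.1 site of the windows was site 5 of Nfkb1, chr3:135270996-135271558, with 209 reads before and 204 after LPS beside 4 in input (ratio 0.976, 0.801 to 1.19). It overlapped an H3K4me1 peak and p300 site 1, and 98.97% of all PU.1 sites had fewer reads. The strongest of Nfkbiz, site 6 at chr16:55811863-55812447, had 112 and 124 reads (1.11, 0.851 to 1.44) beside 2 in input, with neither a p300 nor an H3K4me1 peak on it. In the Nfkbia window the strongest was site 10, chr12:56592428-56594267, which overlaps p300 site 4. It had 98 and 133 reads (1.36, 1.04 to 1.78) beside 17 in input.

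The largest ratio among PU.1 sites was at site 10 of Nfkb1, chr3:135303086-135303668, the PU.1 site at p300 site 2. It had 2 untreated and 34 LPS reads (ratio 17.0, 4.36 to 146), which puts its interval beyond 2-fold. With 36 reads it is below the minimum of 40. It was the 1 of 43 sites with such an interval upward, beside 0.678% of all PU.1 sites with no minimum, and none had one downward, beside 0.124%. In the same window site 8, chr3:135299415-135299834, went from 14 to 43 reads (3.07, 1.65 to 6.08) and site 12, chr3:135335410-135335878, from 8 to 30 (3.75, 1.68 to 9.47). Site 3 of Nfkb1, chr3:135259867-135260399, went the other way, from 73 to 34 reads (0.466, 0.301 to 0.709).

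In the Nfkbia window the weakest untreated site among those with at least 40 reads, site 1 at chr12:56544084-56544654, went from 10 to 34 reads (ratio 3.40, 1.64 to 7.72) and lay outside every p300 peak. With all reads kept in place of 1 per position, this site and sites 8 and 12 of Nfkb1 had at least 40 reads and intervals beyond 2-fold, so the count of such sites went from 0 to 3, beside 0.863% of all sites in that setting. None had one downward, beside 0.161%. These 3 ratios were then 4.45, 3.65 and 4.35.

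Changes of p300 and PU.1 did not go together at every site. The called Nfkbiz site 6 and Nfkb1 site 2 each held several times more PU.1 reads after LPS, whereas the called Nfkb1 site 3 held 25 PU.1 reads in both libraries. At Nfkbia site 2 the PU.1 ratio was 1.59 (1.19 to 2.13) and that of pooled p300 reads 1.26 (0.969 to 1.63). These intervals, which cover counting error only, overlapped. By the same measure both intervals lay above 1 at Nfkbia site 1 and Nfkb1 site 4. Both lay below 1 at Nfkbia site 3. Only the p300 interval lay above 1 at Nfkbia site 5, Nfkbiz sites 2 and 4, and Nfkb1 sites 3 and 5. PU.1 had 1 library per condition, so no test across libraries was possible here.

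**Figure D4:**
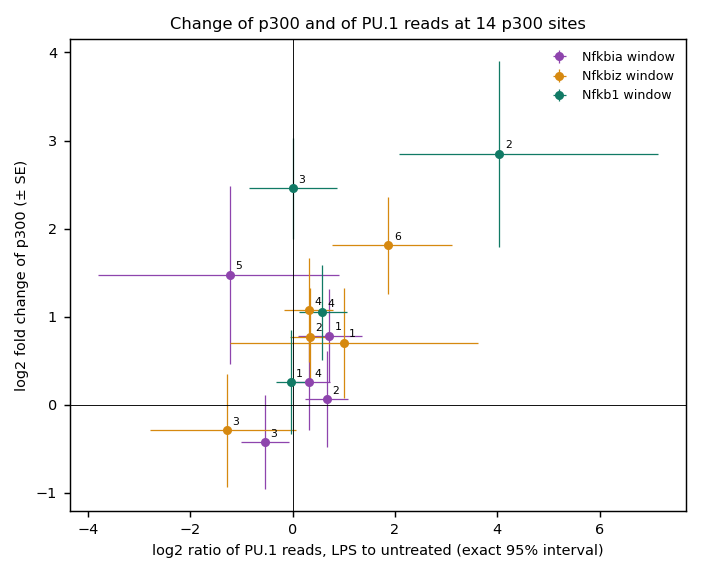
Vertical axis, log2 fold change of p300 with its SE, and horizontal axis, log2 ratio of PU.1 reads (LPS over untreated) with its exact 95% interval, at 14 of the 16 p300 sites, numbered as above and coloured by window. Nfkbiz site 5 (no untreated PU.1 read) and Nfkb1 site 5 (no untreated p300 read) are left out. Nfkb1 site 3 lies high on the line of equal PU.1, while Nfkb1 site 2 lies far to the right.

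Of the 16 p300 sites, 9 held a PU.1 peak of the untreated list (56.3%, exact 95% binomial interval 29.9 to 80.2), beside 48.5% of all p300 sites, a share near the background. A PU.1 peak of the LPS list overlapped 10 (62.5%), beside 50.2%. A further 3 sites had a PU.1 peak after LPS only, namely Nfkbiz sites 3 and 6 and Nfkb1 site 2, and 4 had none. At Nfkbiz site 3 the peak call and the reads differed in direction, since PU.1 reads went from 17 to 7. Seen by list, 6 p300 sites (37.5%) were in both p300 lists, beside 23.2% of all, 8 (50%) in the LPS list alone, beside 38.1%, and 2 (12.5%) in the untreated list alone, beside 38.7%. Peaks shared by both conditions made up 6 of the 8 untreated and 6 of the 14 LPS p300 peaks of the windows.

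H3K4me1, measured before LPS, was spread over much of the Nfkbia and Nfkb1 windows and less of the Nfkbiz window. Its peaks covered 20.7%, 9.86% and 18.8% of the windows of Nfkbia, Nfkbiz and Nfkb1. Summed over peaks there were 1157 H3K4me1 and 219 input reads at Nfkbia, 363 and 69 at Nfkbiz, and 1489 and 211 at Nfkb1. Scaled by background bins the log2 ratios to input were 4.52 (exact 95% interval 4.31 to 4.73), 4.51 (4.14 to 4.90) and 4.93 (4.73 to 5.15), and scaled by total reads 2.39, 2.38 and 2.81. Since the peaks were called on this library against input, these are descriptions of strength. The median width of the peaks was 1136 bp at Nfkbia, 580 bp at Nfkbiz and 872 bp at Nfkb1, against 646 bp over all peaks.

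The peaks with most H3K4me1 reads were chr12:56567421-56570193 in the Nfkbia window (194 reads, 33 input), which overlaps p300 site 2, chr3:135344233-135346892 in the Nfkb1 window (147 and 20) and chr16:55802823-55804020 in the Nfkbiz window (60 and 10). The latter 2 overlapped no p300 peak. In all, 28 of the 63 H3K4me1 peaks (44.4%) overlapped an untreated PU.1 peak, beside 45.8% of all H3K4me1 peaks, and 9 (14.3%) overlapped a p300 peak, beside 13.9%. Both shares were near the background.

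p300 sites differed widely in the mark around them. An H3K4me1 peak overlapped 7 of the 16 (43.8%, exact 95% binomial interval 19.8 to 70.1), beside 48.0% of all p300 sites. Reads within 1 kb of the site centre are given unscaled. Nfkbia site 4, the strongest p300 site, had 6 H3K4me1 and 24 input reads there, a log2 ratio of 0.28 when scaled by background bins. Its neighbour site 3 had 54 and 29, and site 2 of the same window had 155 and 27. Nfkbiz site 3 had 0 and 19 reads, Nfkbiz site 4 had 6 and 17, and Nfkb1 site 4 had 19 and 16. The called sites lay between these, with 70 and 23 reads at Nfkb1 site 3 and 21 and 17 at Nfkbiz site 6. The median log2 ratio to input, scaled by background bins, was 3.33 over the members and 3.52 over all p300 sites.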

How the data were processed

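The deposited files hold aligned reads (1 line per read, on mm9 per the submitters' processing notes) and the authors' MACS peaks with a score of 10 times -log10 p, per the deposited column description. Per the file headers, the comparison library was called naked for p300 peaks, random for PU.1 peaks and input for H3K4me1 peaks. p300 reads of both replicates were merged for peak calling, per the series' design text. The aligner was not given in the sources used here.

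Reads were counted here: 1 read per position and strand, 5′ ends moved 100 bp downstream, chromosomes 1 to 19 and X. Peaks overlapping by at least 1 bp were merged. p300 was fitted with limma voom (limma 3.58.1, R 4.3.3), treatment as single term, adjusted p under 0.05. The deposited files are reads and no count table, and no count model was fitted to the p300 reads counted here per site. Exact 95% intervals of ratios between 2 libraries were computed with the summed reads held fixed and cover counting error only. The Clopper-Pearson binomial intervals of shares treat sites as independent draws. Sites of these fixed windows share the same libraries and some are neighbours, so these intervals only describe how few sites were counted. PU.1 libraries were scaled by the median ratio over PU.1 sites, and H3K4me1 to input by reads in 10 kb bins without peaks. The scripts were tested on simulated data.

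Sites named are, per window, the p300 site with most reads, the largest rise and fall with at least 40 reads, each called site, the PU.1 site with most reads or an interval beyond 2-fold, and the H3K4me1 peak with most reads. Other sites were named after their values were seen. Members and lists were chosen with earlier results of these data known. The planned lists of other NF-κB genes and of cell type markers, and sites at gene starts, need an mm9 annotation and were not analysed here.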

Additional observations from a re-analysis of the deposited data

How the results depend on the processing

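Called p300 sites in the windows went from 2 higher to 0 with total distinct reads or background bins as library size, and to 1 with a 50 bp shift or no minimum of reads. Leaving out 1 library gave 0 to 2, and no setting called a member lower. In leave-one-out fits that left 1 library in an arm, that library is assumed to vary like the others. The summed p300 log2 ratio over all sites kept its sign in all 3 windows, from 0.18 to 0.38 at Nfkbia, 0.78 to 1.10 at Nfkbiz and 1.57 to 1.92 at Nfkb1 with 1 library left out. Over sites in both lists alone, an alternative added after seeing the data, it was 0.12, -0.048 and 0.75. Signs of single sites turned at 6 uncalled members, each with 1 library left out: Nfkbia site 4 (-0.29 without untreated replicate 1, up to 0.58), Nfkbia site 3 (0.027 without untreated replicate 2, down to -0.84), Nfkbiz site 3 (0.025 without LPS replicate 1, down to -1.04), Nfkbiz site 1 (-0.40 without untreated replicate 2), Nfkbia site 2 (-0.29 without untreated replicate 2, -0.044 without LPS replicate 2) and Nfkb1 site 1 (-0.014 without LPS replicate 2). The cause was not tested. limma-trend called Nfkb1 site 3 and Nfkbiz site 4 but not Nfkbiz site 6.

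Genome-wide, 388 higher and 42 lower calls became 0 and 0 with total reads (1032 and 466 at an unadjusted p under 0.05) and with background bins (961 and 491), and the median log2 fold change of all sites moved from 0.00125 to 0.20 and 0.16. limma voom called 497 and 182 without untreated replicate 1, and 0 and 0 without untreated replicate 2 (324 and 1712 unadjusted), LPS replicate 1 (1445 and 311) or LPS replicate 2 (733 and 6).

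The replicate numbers come from the read files, and only 2 pairs exist, so they are not taken to pair the samples (r = 0.134 between the deviations of both replicates numbered 1, over 8639 sites). With a replicate block the fit called 898 and 396 sites, and among members Nfkb1 site 2 too (adjusted p = 0.0386).

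PU.1 sites beyond 2-fold higher went from 0 to 3 with all reads kept, while over all sites 242 of 42939 became 419 of 48555 (0.863%). Intervals that excluded 1 depended on scaling too. With total distinct reads as library size, the PU.1 log2 ratio of the Nfkbia window fell from 0.18 to 0.13. The interval of Nfkbia PU.1 site 10 then included 1 (0.997 to 1.71), while that of Nfkb1 PU.1 site 1 then lay below 1 (0.286 to 0.992). The H3K4me1 log2 ratios were 2.39, 2.38 and 2.81 with total reads. Of the p300 sites, 5 rather than 9 met an untreated PU.1 peak, and 4 rather than 7 an H3K4me1 peak, over at least 50% of their length. At a score of at least 100, 4 of 9 sites met an H3K4me1 peak and 2 of 9 LPS peaks were shared, rather than 6 of 14. At 11 to 245 p300 reads per member, small changes were not detectable at this depth. A large fold on few reads could go uncalled too, as at Nfkb1 p300 site 2 (log2 fold change 2.85, limma voom adjusted p = 0.134).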

Other observations

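The stretch between p300 sites 3 and 4 of the Nfkbia window, chr12:56590194-56592044, lies outside every p300 peak and was chosen after the tracks were seen. Untreated replicates 1 and 2 gave 13 and 18 p300 reads, LPS replicates 33 and 30, and input 13. Normalised reads were 17.2 ± 9.85 and 33.7 ± 20.0 (SD, n = 2 each), so the conditions overlapped. PU.1 reads there were 22 and 34 (ratio 1.55, exact 95% interval 0.878 to 2.77).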
